A study of Homo sapiens with 6 samples.

Results

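E2 ubiquitin-conjugating enzymes were compared between spheroid cultures of SW620 and SW480, a pair of established colorectal cancer cell lines, SW620 grown from a lymph node metastasis and SW480 from a primary tumour. Floating spheres of both lines were kept in serum-free medium with growth factors. Total RNA was hybridised to 6 whole-transcript arrays, 3 per line. Within a line these are technical replicates according to the submitters. The stated purpose was to look for differences in the tumour-initiating compartment; no sorted or adherent cells were among the arrays.

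The genes were taken by symbol. Of 14884 annotated genes, 31 had a symbol starting with UBE2 or with PSM, a letter from A to G and a digit, UBE2V2 being left out. The UBE2 pattern gave 26 genes, each with 1 feature, of which 22 are protein-coding and 4 are pseudogenes. These 22 are part of 35 human protein-coding genes with such a symbol in RefSeq. The PSM pattern gave 5 genes on 7 features, and none of them encodes a proteasome subunit: 4 are antisense or neighbouring non-coding RNAs and the remaining one, PSMC3IP, encodes a meiotic recombination factor. Of 48 core proteasome, activator and assembly chaperone genes with PSM symbols looked up, 0 had an annotated feature. Proteasome components under other symbols (SEM1, ADRM1 and the assembly chaperone POMP) were measured and are described with the partner genes.

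Ubiquitin is passed from an activating enzyme (E1) to a conjugating enzyme (E2), which with a ligase (E3) attaches it to a target protein. The E2 does much to decide which kind of ubiquitin chain is built, and some chain types send the protein to the proteasome. A few E2 enzymes carry relatives of ubiquitin instead, such as ISG15, NEDD8 or SUMO.

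The promoters of 4 E2 genes that differed between the lines are shown first: UBE2R2, with the highest rise, UBE2S, with the largest fall among the coding genes brighter than the median feature that had a promoter in the table used, and the related UBE2G1 and UBE2G2, which moved in opposite directions. Each runs 5′ to 3′ along the gene from 250 bases before its start to 50 after it (RefSeq, GRCh38.p14). Capitals mark matches on either strand to GGGCGG (the GC box), CCGGAAG (bound by ETS factors) or CCAAT (bound by NF-Y).
UBE2R2, chr9:33816910-33817209, plus strand: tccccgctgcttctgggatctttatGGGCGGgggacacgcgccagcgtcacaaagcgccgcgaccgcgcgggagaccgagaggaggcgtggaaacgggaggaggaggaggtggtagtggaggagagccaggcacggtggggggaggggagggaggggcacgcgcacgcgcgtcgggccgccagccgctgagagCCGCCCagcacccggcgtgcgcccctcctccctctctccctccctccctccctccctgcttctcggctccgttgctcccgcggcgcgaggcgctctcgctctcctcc
UBE2G1, chr17:4366626-4366925, minus strand: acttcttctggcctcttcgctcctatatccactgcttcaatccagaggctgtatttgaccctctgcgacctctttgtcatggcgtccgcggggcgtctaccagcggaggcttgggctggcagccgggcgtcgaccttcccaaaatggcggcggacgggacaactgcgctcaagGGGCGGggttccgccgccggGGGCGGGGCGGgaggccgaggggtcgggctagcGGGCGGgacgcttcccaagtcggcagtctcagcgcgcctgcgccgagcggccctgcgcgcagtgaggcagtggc
UBE2G2, chr21:44801771-44802070, minus strand: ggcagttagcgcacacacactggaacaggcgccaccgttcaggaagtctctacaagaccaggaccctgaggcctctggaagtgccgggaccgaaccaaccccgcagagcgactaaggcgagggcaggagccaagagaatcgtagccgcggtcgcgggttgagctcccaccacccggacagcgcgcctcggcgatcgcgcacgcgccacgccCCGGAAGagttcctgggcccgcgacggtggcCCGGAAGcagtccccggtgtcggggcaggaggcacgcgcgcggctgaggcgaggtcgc
UBE2S, chr19:55407739-55408038, minus strand: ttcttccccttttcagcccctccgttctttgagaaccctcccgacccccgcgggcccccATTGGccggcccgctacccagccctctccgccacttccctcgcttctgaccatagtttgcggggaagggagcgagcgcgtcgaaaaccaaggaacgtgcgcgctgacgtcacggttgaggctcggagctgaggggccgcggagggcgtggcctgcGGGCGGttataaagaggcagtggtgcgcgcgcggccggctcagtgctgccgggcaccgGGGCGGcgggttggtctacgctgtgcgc

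Promoters were in the table for 19 of the UBE2 genes, and the outermost start was used where a gene had several. GGGCGG occurred in 14 of the 19, against 45% of 35116 promoters of the same length. The 35116 were not reduced to 1 start per gene and include non-coding genes. The 19 are 1 per gene and all coding, so the shares come from unlike sets. It was in the promoters of the 3 genes that rose, UBE2A, UBE2G1 and UBE2R2, in 3 of 5 that fell and in 8 of 11 that did not pass the test. CCGGAAG was in 4 of the 19, against 10.3% of all promoters, and CCAAT in 5 of 19, against 34.6%. UBE2G1 had 4 matches to GGGCGG, of which 2 overlap by 1 base, and 0 to CCGGAAG, while UBE2G2 had 0 and 2. The cell cycle element TTTGAA was found in 2 of the 19 promoters, those of UBE2T and UBE2U, against 15.2% of all. TGACNNNGC, the core of the antioxidant response element, was in 2 (UBE2K and UBE2Q2), against 13.3%. GAAANNGAA, the core of the interferon-stimulated response element, and CACGTG, the E-box, were in 0 of 19, against 8.11% and 7.26%. These counts describe letters within the window and were not tested.

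The deposited log2 values ran from 1.99 to 13.9, with array medians between 4.04 and 4.07, and the median feature lay at 4.065. Pearson's r over all features was 0.988 to 0.992 between SW620 arrays or between SW480 arrays, and 0.963 to 0.965 where the lines were crossed. The standard deviation of a UBE2 gene between arrays of a line ran from 0.0220 to 0.263. P-values measure only the spread between these arrays, which within a line are technical replicates according to the submitters. They do not measure the spread between separate cultures, and the number of arrays limits the precision. Of 9 measured markers of colon epithelium 7 were brighter than the median feature. EPCAM and KRT18 were bright in both lines and did not pass the test between them (9.61 and 11.7 in SW620, 9.71 and 11.6 in SW480). KRT8, KRT19 and VIL1 were higher in SW620, as was CEACAM5 (6.35 in SW620 and 3.93 in SW480), while CDX2 was lower (4.68 in SW620 and 6.22 in SW480). KRT20 and CDX1 did not exceed the median feature. Of 5 leukocyte markers LCP1, which cancer cells also express, stood at 9.21 in SW620 and 4.56 in SW480, CD68 at 6.35 in SW620 and 5.92 in SW480 and LAPTM5 at 5.84 in SW620 and 6.25 in SW480, all called. CD14 and CD53 were below the median feature, as were the measured fibroblast and endothelial markers DCN, PECAM1, VWF and KDR. The part of other cell types in the results was not tested. In bulk samples fewer cells of a type and less RNA per cell cannot be told apart.

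**Figure D1:**
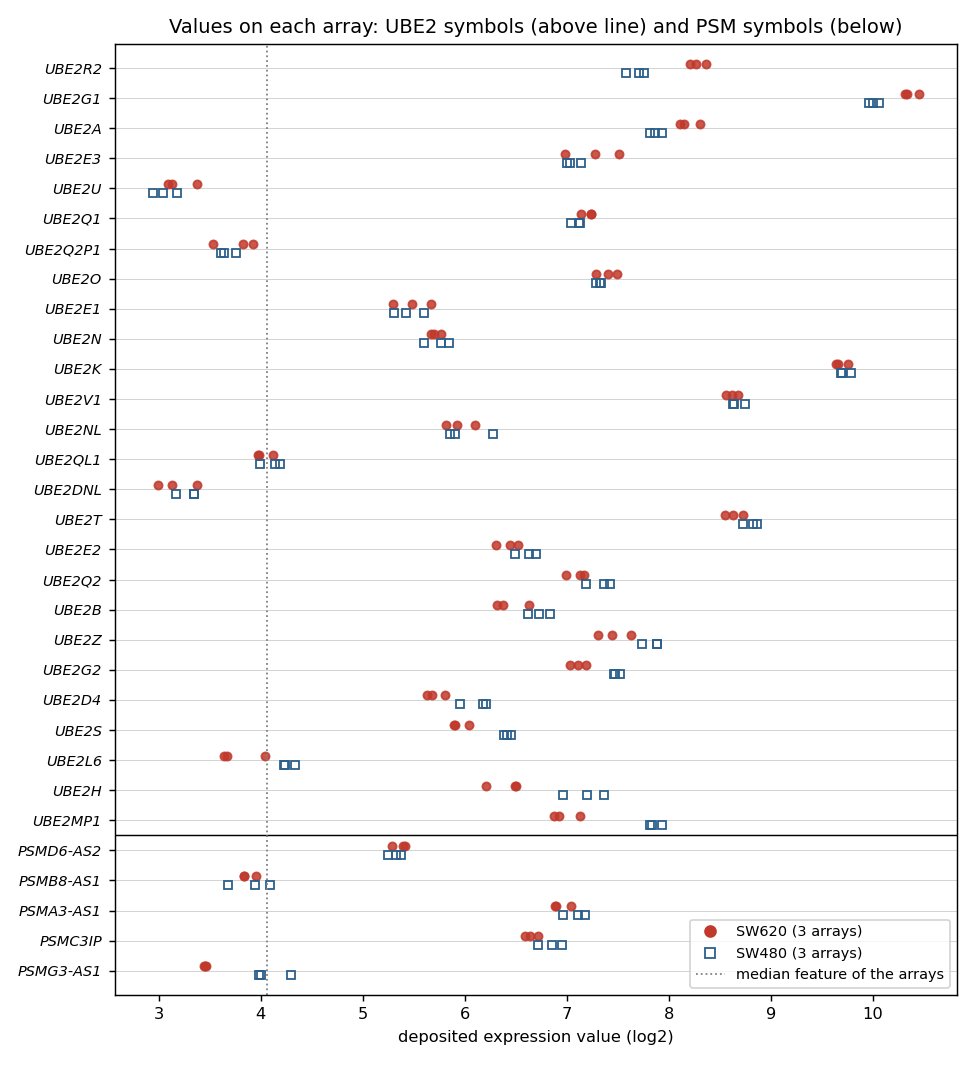
Deposited log2 value on each array (horizontal axis) for every UBE2 gene and, below the line, every PSM-pattern gene; filled circles are SW620 and open squares SW480, 3 arrays each. UBE2H and UBE2MP1 lie to the left in SW620 and UBE2R2 to the right with no overlap; values of different genes come from different probes and are not to be set against each other.

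Differences in the E2 family were modest and went both ways. In SW620 3 genes rose (UBE2R2, UBE2G1 and UBE2A) and 8 fell (UBE2MP1, UBE2H, UBE2L6, UBE2S, UBE2D4, UBE2G2, UBE2Z and UBE2B), while 15 did not pass limma's moderated test at an adjusted p below 0.05. Over all 14884 genes 16% were higher in SW620 and 19.5% lower, 35.6% in all, against 42.3% of the UBE2 genes. Among coding genes brighter than the median feature 9 of 20 UBE2 genes were called (45%, 3 higher and 6 lower), against 51.6% of 8352 genes (23.2% higher and 28.3% lower). The share of E2 genes called was therefore near that of other genes. None of the 26 reached a 2-fold difference, while 6.07% of all genes passed the test at that size, 2.32% higher and 3.76% lower. The differences ran from -0.89 to 0.60 with a median of -0.0721, beside a median of 0.0132 over all genes. The 3 arrays of each line did not overlap for 4 UBE2 genes higher and 8 lower in SW620, against 22% and 23.7% of all genes, 45.7% in all.

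**Figure D2:**
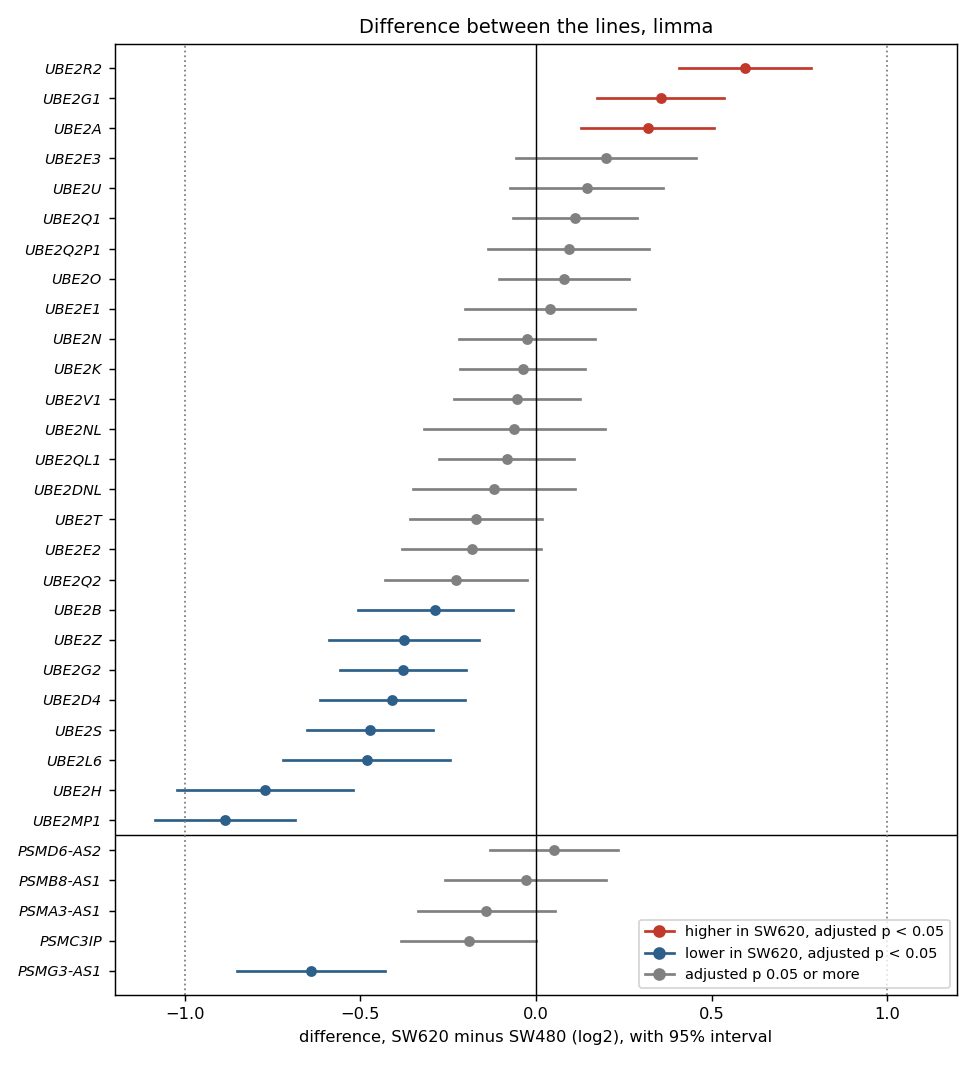
Difference between the lines, SW620 minus SW480, on the log2 scale with its 95% interval for each UBE2 gene and, below the line, each PSM-pattern gene. Colours mark genes higher in SW620, lower in SW620 or not past an adjusted p of 0.05; dotted lines mark a 2-fold difference, which no gene plotted here reached.

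UBE2H had the largest fall and UBE2R2 the largest rise of the coding UBE2 genes. Both were listed here with E2 enzymes that build degradation signals, often with cullin ligases or at the endoplasmic reticulum. UBE2H, the E2 of the CTLH ligase complex, had values of 6.49, 6.51 and 6.21 on the SW620 arrays, against 6.96, 7.36 and 7.20 on the SW480 arrays. All SW620 arrays lay below all SW480 arrays. The mean was 6.40 ± 0.169 in SW620 and 7.18 ± 0.201 in SW480 (SD, n = 3 each), 1.71-fold lower in SW620 (log2 difference -0.77, standard error 0.116, limma adjusted p = 0.000157).

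UBE2R2, a close relative of CDC34 that extends chains on targets of cullin-RING ligases, had 8.26, 8.21 and 8.36 in SW620, against 7.59, 7.71 and 7.76 in SW480. Every SW620 array was higher than every SW480 array, and the gene was 1.51-fold higher in SW620 (0.60, standard error 0.0871, limma adjusted p = 0.000125). CDC34 itself, also known as UBE2R1 and so outside the symbol pattern, differed in the same direction by 0.28 (adjusted p = 0.0230), a call lost without SW620 replicate 1, SW480 replicate 2 or SW480 replicate 3 (limma adjusted p from 0.0593 to 0.0944).

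UBE2G1, which also extends chains on cullin-RING targets, had 10.31, 10.45 and 10.34 in SW620, against 9.97, 10.06 and 10.01 in SW480. It rose 1.28-fold (0.36, standard error 0.0832, limma adjusted p = 0.00446), with no overlap between the lines. UBE2G2, the E2 of ligases that clear misfolded proteins from the endoplasmic reticulum, had 7.11, 7.19 and 7.03 in SW620, against 7.46, 7.52 and 7.48 in SW480. It was 1.30-fold lower in SW620 (-0.38, standard error 0.0825, limma adjusted p = 0.00270), again without overlap. UBE2K, which builds degradation-type chains, stood at 9.69 ± 0.0615 in SW620 and 9.73 ± 0.0535 in SW480 (SD, n = 3 each). Its difference of -0.0376 had a 95% interval from -0.22 to 0.14.

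E2 enzymes of the cell cycle and of DNA repair were split. UBE2S, which extends chains on targets of the anaphase-promoting complex, had 6.04, 5.91 and 5.89 in SW620, against 6.39, 6.45 and 6.41 in SW480. The lines did not overlap, and UBE2S was 1.39-fold lower in SW620 (-0.47, standard error 0.0827, limma adjusted p = 0.000536). UBE2A and UBE2B are the near-identical human forms of yeast RAD6, which mark the replication clamp PCNA at damaged DNA. UBE2A had 8.11, 8.31 and 8.15 in SW620, against 7.86, 7.93 and 7.81 in SW480. All 3 SW620 arrays were above all 3 SW480 arrays, a 1.25-fold rise (0.32, limma adjusted p = 0.0120) that missed the threshold without SW620 replicate 2 (adjusted p = 0.0552). UBE2B had 6.38, 6.32 and 6.63 in SW620, against 6.72, 6.84 and 6.62 in SW480. Here the lines overlapped, because the highest SW620 array exceeded the lowest SW480 array, and the gene was 1.22-fold lower in SW620 (-0.29, limma adjusted p = 0.0430). The call for UBE2B was lost without SW620 replicate 1 or 2 or SW480 replicate 1 or 2 (adjusted p from 0.0864 to 0.160), with centring on the 75th percentile (0.0597) and with the replicate number as a block (0.0603).

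UBE2T, the E2 of the Fanconi anaemia pathway, had a mean of 8.64 ± 0.0914 in SW620 and 8.81 ± 0.0731 in SW480 (SD, n = 3 each). Its difference of -0.17 did not pass limma (adjusted p = 0.153; 95% interval -0.36 to 0.0167). UBE2N, which with UBE2V1 builds chains for signalling rather than for degradation, stood at 5.71 in SW620 and 5.74 in SW480. UBE2V1 stood at 8.62 in SW620 and 8.68 in SW480. The intervals of the difference were -0.22 to 0.17 for UBE2N and -0.23 to 0.13 for UBE2V1.

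In the UBE2D and UBE2E families, whose members work with many ligases, 1 of 4 measured genes changed. All 4 were brighter than the median feature, where 51.6% of coding genes were called, against 35.6% of all genes. UBE2D4 had 5.63, 5.81 and 5.68 in SW620, against 6.21, 6.18 and 5.95 in SW480, with no overlap. It was 1.33-fold lower in SW620 (-0.41, standard error 0.0953, limma adjusted p = 0.00426). UBE2E1, UBE2E2 and UBE2E3 differed by 0.0400, -0.18 and 0.20 and did not pass. UBE2E3 was uneven in SW620, with 6.99, 7.51 and 7.28 against 7.01, 7.03 and 7.14 in SW480, and without SW620 replicate 1 its difference was 0.33 (limma adjusted p = 0.0280).

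Of the listed E2 enzymes for relatives of ubiquitin, UBE2L6 was the measured one. It loads ISG15 onto proteins and is induced by interferon. Its values were 3.64, 3.68 and 4.05 in SW620, against 4.34, 4.24 and 4.22 in SW480. The lines did not overlap, and it was 1.40-fold lower in SW620 (-0.48, standard error 0.110, limma adjusted p = 0.00365), but its mean over the arrays lay below the median feature, where RMA's background can understate a fold.

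Among the remaining coding E2 genes UBE2Z, which is charged by the activating enzyme UBA6, had 7.63, 7.31 and 7.45 in SW620, against 7.89, 7.89 and 7.73 in SW480. It was 1.30-fold lower in SW620 (-0.38, limma adjusted p = 0.00899), without overlap. UBE2O, a large enzyme that combines E2 and E3 activity, differed by 0.0792, UBE2Q1 by 0.11, UBE2Q2 by -0.23, UBE2QL1 by -0.0830 and UBE2U by 0.14, and these did not pass. UBE2U was dim, at 3.20 in SW620 and 3.06 in SW480. UBE2Q2 was the single uncalled UBE2 gene whose 95% interval did not include 0 (-0.43 to -0.0254, adjusted p = 0.0775). Over all 15 uncalled UBE2 genes the interval bounds lay between -0.43 and 0.46.

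Of the 4 pseudogenes UBE2MP1 showed the largest difference of the family. Its values were 7.13, 6.88 and 6.92 in SW620, against 7.83, 7.82 and 7.93 in SW480. It was 1.85-fold lower in SW620 (-0.89, standard error 0.0922, limma adjusted p = 6e-06), and the lines did not overlap. UBE2MP1 is a copy of UBE2M, the E2 for NEDD8, for which no feature was analysed here, so RNA of the parent gene and of the copy cannot be told apart in this value. UBE2NL, UBE2DNL and UBE2Q2P1, copies related to UBE2N, the UBE2D genes and UBE2Q2, differed by -0.0612, -0.12 and 0.0932 and did not pass. UBE2DNL and UBE2Q2P1 were below the median feature.

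Close relatives were also set against each other on the same array, which removes what an array has in common for both genes. UBE2A minus UBE2B was 1.73, 1.99 and 1.52 in SW620, against 1.14, 1.09 and 1.19 in SW480. UBE2G1 minus UBE2G2 was 3.21, 3.27 and 3.31 in SW620, against 2.51, 2.54 and 2.53 in SW480. UBE2Q1 minus UBE2Q2 was 0.11, 0.25 and -0.0285 in SW620, against -0.32, -0.30 and -0.0565 in SW480. In these 3 pairs every SW620 array was above every SW480 array, by 0.60, 0.73 and 0.34 on average. The exact two-sided permutation p was 0.1 for each, which is the smallest that 3 arrays against 3 allow, and 0.2 after Benjamini-Hochberg adjustment over the 6 pairs compared. The pairs among UBE2E1, UBE2E2 and UBE2E3 had exact permutation p-values from 0.2 to 0.5. All 6 pairs were chosen after the members' values had been seen. UBE2R2 and CDC34, close relatives that both rose, were not among them.

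**Figure D3:**
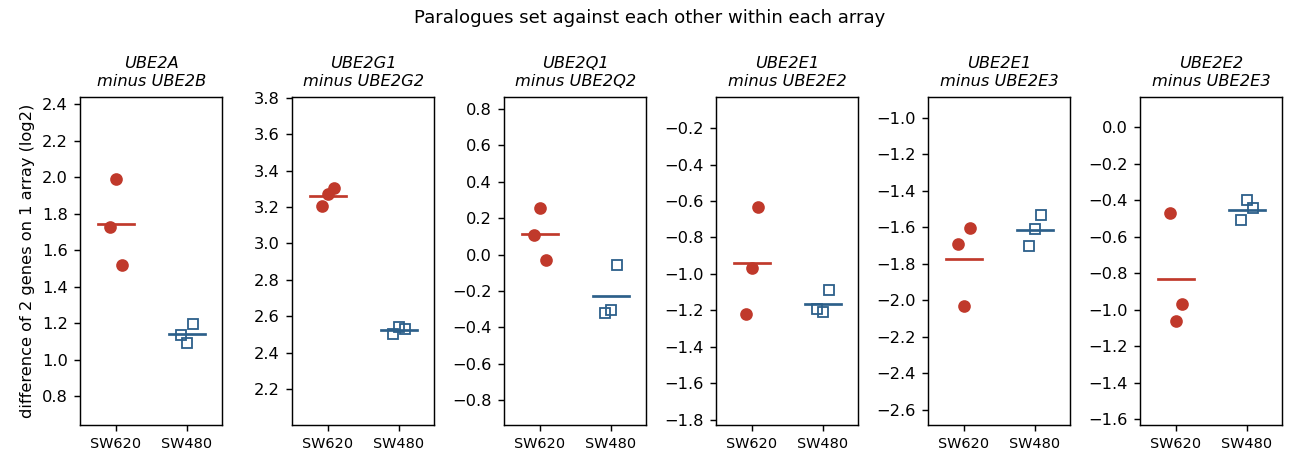
Difference between the log2 values of related E2 genes within each array (vertical axis, 6 panels of equal span) in SW620 (filled circles) and SW480 (open squares), with the mean of 3 arrays as a line. UBE2A minus UBE2B and UBE2G1 minus UBE2G2 are higher on every SW620 array, and the UBE2E pairs overlap.

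The PSM-pattern genes gave 1 call among 5, against 35.6% of all genes. PSMG3-AS1, an RNA from the strand opposite the proteasome chaperone gene PSMG3, had 3.46, 3.46 and 3.45 in SW620, against 3.985, 4.299 and 4.004 in SW480. It was 1.56-fold lower in SW620 (-0.64, standard error 0.0969, limma adjusted p = 0.000167), with no overlap, but it was dim and its SW620 mean of 3.46 lay below the 25th percentile feature (3.53). PSMC3IP, which helps strand exchange in meiotic recombination, had 6.64, 6.59 and 6.72 in SW620, against 6.95, 6.86 and 6.72 in SW480. The arrays did not overlap by a narrow margin, and the difference of -0.19 did not pass limma (adjusted p = 0.118). PSMA3-AS1 and PSMD6-AS2 differed by -0.14 and 0.0519 and did not pass. PSMB8-AS1, beside the immunoproteasome gene PSMB8, was carried by 3 features that hold the same values and count as 1, at 3.88 ± 0.0641 in SW620 and 3.91 ± 0.208 in SW480 (SD, n = 3 each). The neighbouring proteasome genes of these RNAs were not analysed here, and without a statement on strand a value near an antisense gene cannot be assigned to that gene alone.

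Other genes of the pathway act before and behind the E2 step. Of 7 measured activating enzymes 2 rose and 0 fell, against 16% and 19.5% of all genes and 23.2% and 28.3% of coding genes brighter than the median feature. NAE1, a subunit of the enzyme that activates NEDD8, had 11.19, 11.21 and 11.16 in SW620, against 10.03, 9.98 and 10.02 in SW480, a 2.26-fold rise (1.18, limma adjusted p = 8.63e-08). Its partner UBA3 differed by 0.0303 and did not pass. UBA1, the main ubiquitin-activating enzyme, had 9.86, 9.68 and 9.77 in SW620, against 9.44, 9.33 and 9.37 in SW480 (1.31-fold higher, limma adjusted p = 0.00279), without overlap. UBB, the single measured ubiquitin gene, differed by 0.0383 (95% interval -0.19 to 0.26).

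Of 13 measured proteasome partners 6 fell and 2 rose in SW620, with a median difference of -0.20. All 13 were brighter than the median feature, where 28.3% of coding genes fell and 23.2% rose. The 2 that rose were UCHL5 and UBQLN2, and without SW620 replicate 2 or without SW480 replicate 3 only 1 did. SEM1, a small subunit of the proteasome lid that also binds the repair protein BRCA2, had 6.58, 6.63 and 6.61 in SW620, against 7.56, 7.91 and 7.92 in SW480. It was 2.28-fold lower in SW620 (-1.19, standard error 0.104, limma adjusted p = 1.12e-06) on its brighter feature, with a wide gap between the lines. The fold depended on the feature: the difference was -0.79 with the mean of its features and -0.38 with the dimmer one (limma adjusted p = 0.0200). POMP, a chaperone needed to assemble the proteasome core, had 10.12, 10.15 and 10.27 in SW620, against 10.91, 10.91 and 10.96 in SW480 (1.68-fold lower, limma adjusted p = 1.01e-05). The others that fell were AKIRIN2, which brings proteasomes into the nucleus (1.60-fold lower), the proteasome-bound deubiquitinase USP14, the segregase VCP and the assembly factor PAAF1, all named here after their values were seen. ADRM1, a ubiquitin receptor of the proteasome also named after its value was seen, differed by -0.16 and did not pass (limma adjusted p = 0.164).

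NFE2L1 is the transcription factor known to raise proteasome genes when the proteasome is inhibited, and of 5 measured genes around it and its relative NFE2L2, 3 fell and 0 rose, against 28.3% and 23.2% of coding genes brighter than the median feature, as all 5 were. NFE2L2, the regulator of the oxidative stress response, had 7.28, 7.26 and 7.48 in SW620, against 7.864, 8.001 and 7.864 in SW480 (1.48-fold lower, limma adjusted p = 0.000261). MAFG, a binding partner of both factors, was 1.27-fold lower, and NFE2L1, named after its value was seen, was 1.23-fold lower (limma adjusted p = 0.0124). The anaphase-promoting complex, the ligase that UBE2S serves, had 6 genes that rose and 4 that fell among 16 measured subunits and co-activators. All 16 were brighter than the median feature, where 23.2% of coding genes rose and 28.3% fell, 51.6% in all. ANAPC15 had 7.14, 7.04 and 7.07 in SW620, against 6.40, 6.43 and 6.46 in SW480 (1.58-fold higher, limma adjusted p = 2.55e-05). The scaffold subunit CDC16 had 8.51, 8.70 and 8.73 in SW620, against 8.11, 8.18 and 8.21 in SW480 (1.39-fold higher, limma adjusted p = 0.000852). The list for peptide loading, which uses peptides made by the proteasome, had 3 measured genes: TAPBP, B2M and the transcription factor IRF1. Each was brighter than the median feature, where 51.6% of coding genes were called, and 0 of the 3 passed over all genes. The arrays of the lines did not overlap for TAPBP and B2M, as for 45.7% of all genes. TAPBP had the smallest p of the 3, with a difference of -0.22 (limma adjusted p = 0.0837). It passed with the mean of its features (limma adjusted p = 0.0315) and without SW620 replicate 3 (0.0433).

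**Figure D4:**
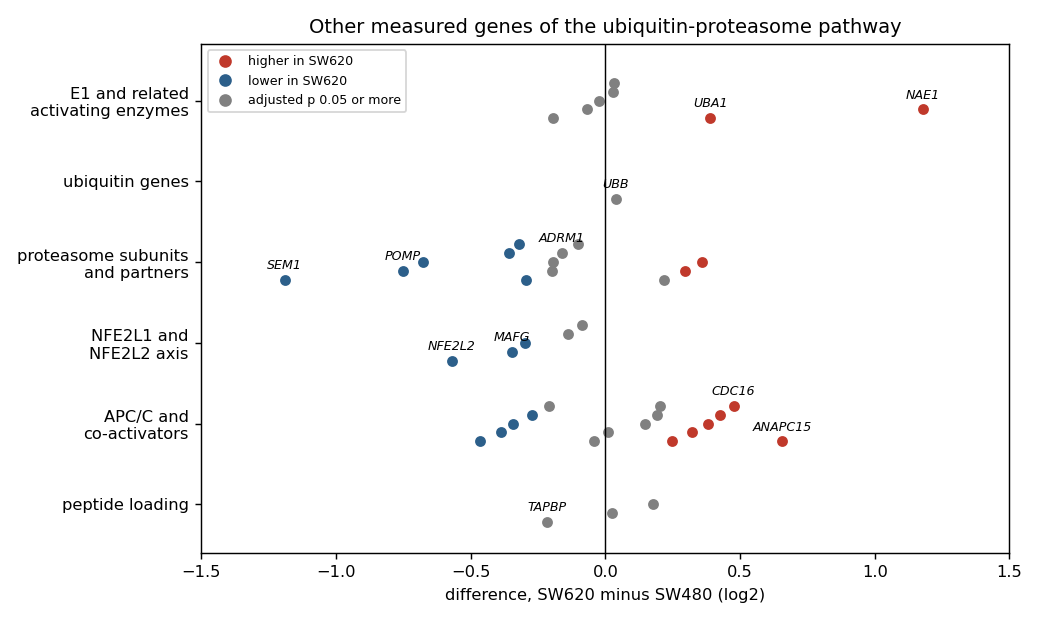
Difference, SW620 minus SW480 (log2, horizontal axis), for each measured gene of 6 groups around the E2 enzymes, 1 point per gene, coloured by limma's call; points are spread vertically within a group for legibility. NAE1 lies farthest to the right and SEM1, by its brighter feature, farthest to the left.

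Members were also set beside their chromosomal neighbours, taken as the 10 nearest measured protein-coding genes on each side in gene order (RefSeq, GRCh38.p14). Around UBE2D4 on chromosome 7 the 20 neighbours had a median difference of -0.47, with 14 lower and 0 higher in SW620, beside -0.41 for UBE2D4. Around UBE2B on chromosome 5 the median was -0.31 with 11 of 20 lower and 1 higher, beside -0.29 for the gene. Around UBE2Z on chromosome 17 it was -0.28 with 10 of 20 lower and 2 higher, beside -0.38. Around PSMG3-AS1 on chromosome 7 it was -0.31 with 12 of 20 lower and 4 higher, beside -0.64. Among all measured protein-coding genes 21.9% were lower and 17.6% higher in SW620.

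Other members differed more than their surroundings or in the opposite direction. Of the 11 called UBE2 genes 8 had a neighbour median of the same sign as their own difference, and 3 had one of the opposite sign. UBE2R2 rose by 0.60 among neighbours with a median of -0.0827 on chromosome 9. UBE2MP1 fell by 0.89 with a neighbour median of 0.18 on chromosome 16, and UBE2L6 fell by 0.48 with a neighbour median of 0.0294 on chromosome 11. UBE2G1, UBE2G2, UBE2A and UBE2S had neighbour medians of 0.0860, -0.0459, 0.0335 and -0.10, all smaller in size than their own differences. UBE2H on chromosome 7 differed by -0.77, with a neighbour median of -0.19 and 8 of 20 lower and 0 higher. Among the partner genes SEM1 lies on chromosome 7 like UBE2H, UBE2D4 and PSMG3-AS1. It had a neighbour median of -0.57 with 12 of 20 lower and 2 higher. POMP on chromosome 13 had -0.32 with 11 of 20 lower and 0 higher. NAE1 on chromosome 16 had 0.52 with 12 of 20 higher and 1 lower. Around CDC16 on chromosome 13 the median of the 11 available neighbours was 0.49 with 7 higher and 1 lower, beside 0.48 for the gene. ANAPC15, UBA1 and NFE2L2 had neighbour medians of 0.12, 0.18 and -0.12, smaller in size than their own differences. MAFG fell by 0.35 with a neighbour median of 0.19. The part of a gene's surroundings in its own difference was not tested.

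**Figure D5:**
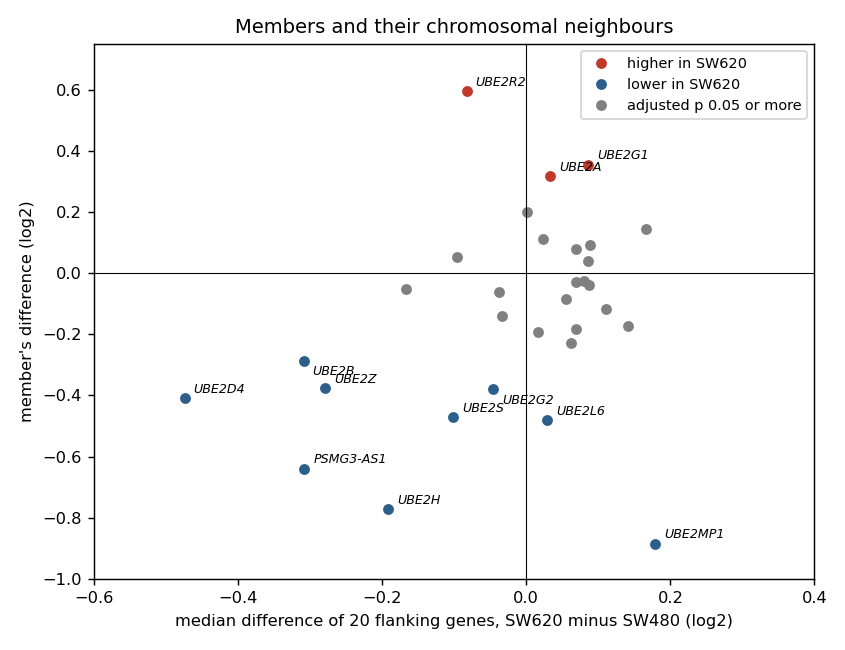
Difference of each member (vertical axis) against the median difference of its 20 flanking genes (horizontal axis), both SW620 minus SW480 on the log2 scale, with called members named. UBE2D4, UBE2B, UBE2Z and PSMG3-AS1 lie at the left with neighbours that are also lower, and UBE2R2 and UBE2MP1 lie far from theirs.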

How the data were processed

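Each array's log2 value per feature was used as deposited. The authors made these values in Partek by RMA, per the submitters' processing notes; the version is not given in the sources used here. As a method, RMA subtracts background, equalises the arrays and joins the probes of a feature. The range of the values was read as base 2. Of 53616 features 16098 had 1 gene symbol in the platform annotation and 37518 none here. All 16098 matched a RefSeq gene (GRCh38.p14).

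The feature with the highest mean stood for a gene, with no filter on dim features. Differences, SW620 minus SW480, were tested two-sided by lmFit and eBayes of limma 3.58.1 (R 4.3.3), with line as the single term and 8.39 prior degrees of freedom. P-values were adjusted by Benjamini-Hochberg across the 14884 genes, and genes below 0.05 were called. Intervals are 95% ones of this fit, not adjusted for the number of genes. The fit was tested on simulated data.

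Members and lists were chosen with earlier results of these data known. Per-array values are given for up to 4 called genes per role group, and up to 2 called genes, or that with the smallest p, per list of partner genes. Those of UBE2E3, UBE2MP1, PSMG3-AS1 and PSMC3IP are also given, outside this rule and with their values known. The ligase list also held FANCL, which was not analysed here. The alternatives were 4 other scalings, a filter on dim features, a trended robust variance, other rules for several features, a replicate block and leaving out each array.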

Additional observations from a re-analysis of the deposited data

How the results depend on the processing

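Of 459 differences of single members recomputed under the alternatives, 442 kept their direction and their side of the threshold. Part of this agreement was fixed in advance. No member had features with differing values, so the other rules for several features returned the same differences. The filter on dim features, the trended robust variance and the replicate block also left each difference as it was and could move only its adjusted p. The count of UBE2 genes lower in SW620, 8, was 7 with centring on the 75th percentile and with the replicate block, and 7 to 9 when an array was left out. The count higher, 3, was 3 with the replicate block and 2 to 4 when an array was left out. Protein-coding UBE2 genes alone, an alternative chosen after seeing the data, gave 3 higher and 7 lower. With a minimum of 2-fold the counts were 0 for UBE2 genes higher, 0 for UBE2 genes lower and 0 for PSM-pattern genes lower, which follows from the size asked for. The single PSM-pattern call was also 0 among features brighter than the median feature, since PSMG3-AS1 was not among those tested. Over all genes together, same-numbered arrays of the lines did not deviate together (correlations -0.00889, -0.0234 and -0.0119). These correlations cannot show whether single genes share a replicate effect. The replicate block moved the call of UBE2B alone among the members (limma adjusted p = 0.0603). Differences near 0 changed sign. When an array was left out, UBE2N ran from -0.0922 to 0.0266, UBE2E1 from -0.0549 to 0.133, UBE2NL from -0.139 to 0.0706, PSMB8-AS1 from -0.140 to 0.0653 and UBB from -0.0436 to 0.141, and UBE2N was 0.00145 with centring on the 75th percentile. UBE2Q2, not called in the report, passed with the trended robust variance (adjusted p = 0.0442) and without SW480 replicate 3 (0.0403). The median difference of all genes lay between -0.0117 and 0.0402 over the scalings. Detection calls were not used here, so the folds of UBE2L6 and PSMG3-AS1 rest on levels near the dim end.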
